A study of Mus musculus with 24 samples.

Results

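Colon of vehicle-treated ApcMin mice was set against colon of vehicle-treated wild-type mice, with 1 Illumina bead array per sample and 4 arrays per genotype. The 8 arrays were those labelled as replicates 1 to 4 of each group, out of 24 in the series. ApcMin vehicle replicates 5 to 8 were left out because no wild-type array carries their numbers. The ApcMin group (APCMin/+) had inherited 1 mutant and 1 normal copy of Apc, and the wild-type group 2 normal copies, both on the strain C57Bl/6. Mice of both groups were gavaged daily for 7 days, starting at 6 weeks of age, with a vehicle of 0.05% DMSO and 0.95% carboxymethylcellulose. The colons were collected when the mice were 14 weeks old, with 7 weeks between the end of dosing and collection. The labels give neither the region of the colon nor whether tumours were present in it. Nor do they tie each array to its own mouse, and the replicate spread may therefore be partly technical.

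Apc is a scaffold of the complex that marks beta-catenin for destruction. When both copies are lost in an intestinal stem cell, beta-catenin accumulates, binds Tcf factors on DNA and keeps Wnt target genes on, and an adenoma forms. Min is a nonsense mutation, and mice with 1 Min copy have a largely normal mucosa until the second copy is lost in single crypts; their adenomas lie mostly in the small intestine and fewer in the colon. Whether the samples held tissue that had lost the second copy is not given.

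All levels are log2 normalized signals, with a constant offset added before the log2 step. Differences are ApcMin minus wild type with their standard error (SE) or 95% interval. A step of 1 unit is a 2-fold difference in signal with the offset included, so differences of dim genes are compressed. With a smaller offset of 16, the dim Zfp322a went from -0.25 to -0.41 and the brighter Hcfc1 from -0.37 to -0.39. Targets brighter than the median target were tested, 9048 of 18097. Raw array medians were 86.6 to 93.4 intensity units in ApcMin and 81.4 to 92.7 in wild type, and precision is set by having 4 arrays a genotype. The intestinal transcription factors Cdx1 and Cdx2 and the brush border gene Vil1 were well above the normalization floor of 5.65 on every array, at 10.78 or more. Slc26a3, the chloride exchanger of surface colonocytes, read only 5.97 to 6.54 over the 8 arrays and fell under the brightness filter. Of the 9048 targets, 0 (0%) were called at a limma adjusted p under 0.05, and the smallest adjusted p was 0.974.

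The arrays differed more between replicate 4 of both genotypes and replicates 1 to 3 than by genotype. Over all tested targets, genotype held 15.4% of the sum of squares between the 8 arrays and replicate number 63.4%. Replicate number splits the arrays into more groups than genotype does, so these shares are not on equal terms. The contrast of replicate 4 of both genotypes with replicates 1 to 3 alone held 50.7%, most of the replicate-number share. On the first principal component ApcMin replicate 4 scored 29.0 and wild-type replicate 4 scored 29.2, and the other 6 arrays lay between -12.4 and -5.35. The second component ran from -23.3 in ApcMin replicate 2 and -14.1 in ApcMin replicate 3 to 14.6 in wild-type replicate 2, with ApcMin replicate 1 at 9.59 among the wild-type arrays.

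**Figure D1:**
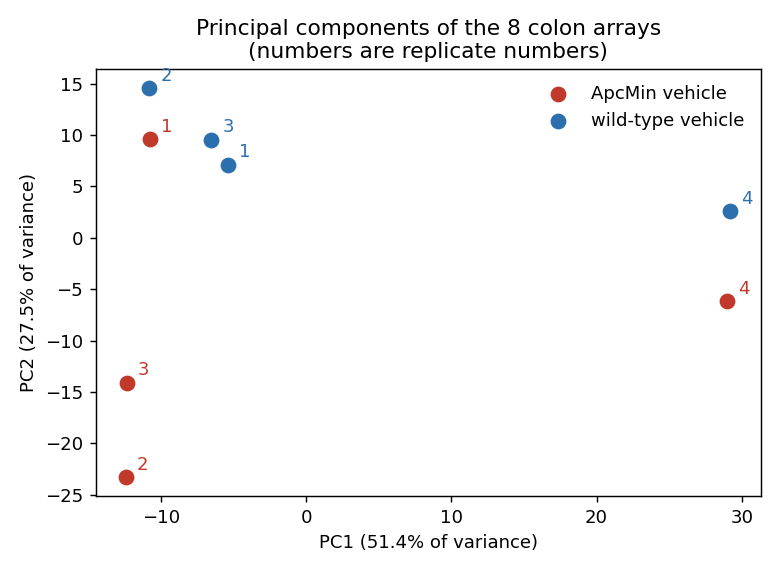
The 8 colon arrays on the first (horizontal, 51.4% of variance) and second (vertical, 27.5%) principal components of the tested genes, ApcMin vehicle in red and wild-type vehicle in blue, with replicate numbers beside the points. Replicates 4 of both genotypes lie together at 29.0 and 29.2 on the first component, and ApcMin replicates 2 and 3 lie lowest on the second.

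Genes with a large weight on the first component, picked after their values were seen, show how the replicates 4 stood apart. Osr2, a zinc finger developmental regulator, read 6.70, 6.74, 6.64 and 12.89 in ApcMin replicates 1 to 4 and 6.60, 7.23, 6.84 and 13.00 in wild-type replicates 1 to 4. Reg3b, a bactericidal lectin of the gut epithelium, read 5.92, 6.68, 6.06 and 12.00 in ApcMin and 6.03, 5.88, 6.32 and 12.64 in wild type. On 3 arrays of each genotype Reg3b was at background or near it and Osr2 was dim, and both were bright on the fourth. Slc51a, a subunit of the basolateral bile acid exporter, read 12.02 in ApcMin replicate 4 and 12.14 in wild-type replicate 4, against 6.11 to 6.21 in ApcMin replicates 1 to 3 and 6.13 to 6.97 in wild-type replicates 1 to 3. Sis, the sucrase-isomaltase of the brush border, read 10.02 and 10.41 in the same pair, and Hoxb7, of the axial patterning genes, 10.79 and 10.81. On the opposite side stood Aqp8, a water channel of surface colonocytes, at 12.70, 12.53, 12.60 and 9.20 in ApcMin and 12.42, 12.69, 12.46 and 9.55 in wild type. Atp12a, the colonic proton pump, read 12.52, 11.47, 11.97 and 8.51 in ApcMin and 12.43, 12.94, 12.41 and 9.82 in wild type. The region of colon sampled was not given and its part in these values was not tested.

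Because a same-numbered pair could share such a difference, the comparison was also fitted with replicate number as a block. Deviations from the group means had r = 0.153, 0.107, 0.342 and 0.842 across genes within the pairs numbered 1 to 4. Each group mean included its replicate 4, which stood apart in both genotypes. Positive r for numbers 1 to 3 follows in part from that, so these values cannot show pairing. Only ApcMin replicate 4 correlated best with the wild-type array of its own number, while ApcMin replicates 1, 2 and 3 correlated better with wild-type replicates 2, 1 and 2 (r = 0.408, 0.323 and 0.350). With the block, limma again called 0 genes (smallest adjusted p = 0.593), and 720 had an unadjusted p under 0.05, against 424 (4.69%) without it. All further differences and intervals are from the fit without the block, and the intervals are not adjusted for the number of targets.

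Single genes differed between the genotypes by small amounts on this scale, where the offset compresses the differences of dim genes. Among the 9048 targets, 112 (1.24%) had all 4 ApcMin arrays above all 4 wild-type arrays, by a median of 0.19 and at most 0.55. A further 176 (1.95%) had all 4 ApcMin arrays below, by a median of 0.19 (log2 difference -0.19) and at most 0.47 (-0.47). Differences over 1 log2 unit occurred in 31 targets on the higher and 5 on the lower side, and in 0 of them did the groups not overlap. The 95% interval lay within 1 log2 unit of 0 for 8769 targets (96.9%).

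The genes with the smallest p on the higher side included several of leukocytes, none of which was called (limma adjusted p = 0.974 for each gene named in this paragraph and the next). Fcer1g, the signalling chain of Fc receptors on myeloid and NK cells, read 9.98, 9.79, 9.86 and 9.83 in ApcMin and 9.47, 9.51, 9.40 and 9.60 in wild type, a difference of 0.37 ± 0.07 (SE). Rac2, a small GTPase of blood cells, read 7.74, 7.70, 7.37 and 7.37 in ApcMin and 7.16, 6.96, 6.75 and 7.11 in wild type, and its 0.55 ± 0.12 was the largest difference among genes whose groups did not overlap. Each of these genes was higher on every ApcMin array than on any wild-type array. Pld4, an endosomal nuclease of myeloid cells, differed by 0.30 ± 0.07, and Slc15a4, an endolysosomal transporter needed for nucleic acid sensing, by 0.27 ± 0.07. The 2 probes of Slc15a4 gave 0.31 and 0.13, and the groups overlapped in the second. Gimap7, of a GTPase family found in lymphocytes, read 7.12, 7.17, 6.97 and 6.89 in ApcMin and 6.67, 6.26, 6.47 and 6.86 in wild type, so that the closest arrays of the groups were 0.03 apart. Outside the leukocyte genes, the epithelial transcription factor Ovol1 differed by 0.38 ± 0.08 and the translation factor Eif4b by 0.38 ± 0.08. Mfap4, a microfibril protein, Arl16, a small GTPase, and Sectm1b, an epithelial ligand of the T cell receptor Cd7, differed by 0.31, 0.27 and 0.31, also without overlap.

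The genes with the smallest p on the lower side were of varied function. R3hdm2, an RNA-binding domain protein, read 7.58, 7.23, 7.44 and 7.43 in ApcMin and 7.88, 7.82, 7.68 and 7.86 in wild type, a difference of -0.39 ± 0.09. Hcfc1, a transcriptional co-regulator, read 9.17, 9.32, 9.22 and 9.04 in ApcMin and 9.70, 9.53, 9.56 and 9.42 in wild type (-0.37 ± 0.08). In both genes every ApcMin array lay below every wild-type array. Atp6v1a, the catalytic subunit of the vacuolar proton pump, differed by -0.33 ± 0.08, Hdac3, a histone deacetylase, by -0.27 ± 0.07, and Mrpl20, of the mitochondrial ribosome, by -0.27 ± 0.07. Tcof1, the treacle protein of ribosomal RNA synthesis, had the largest of the named lower differences, -0.42 ± 0.11, with 7.82, 7.63, 7.76 and 7.51 in ApcMin and 8.30, 8.24, 7.98 and 7.88 in wild type. Pf4, a platelet chemokine, and Prf1, the perforin of cytotoxic lymphocytes, both differed by -0.36. Prrc2b, Ptpdc1, Adgrl1 and Zfp322a differed by -0.25, -0.23, -0.23 and -0.25.

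**Figure D2:**
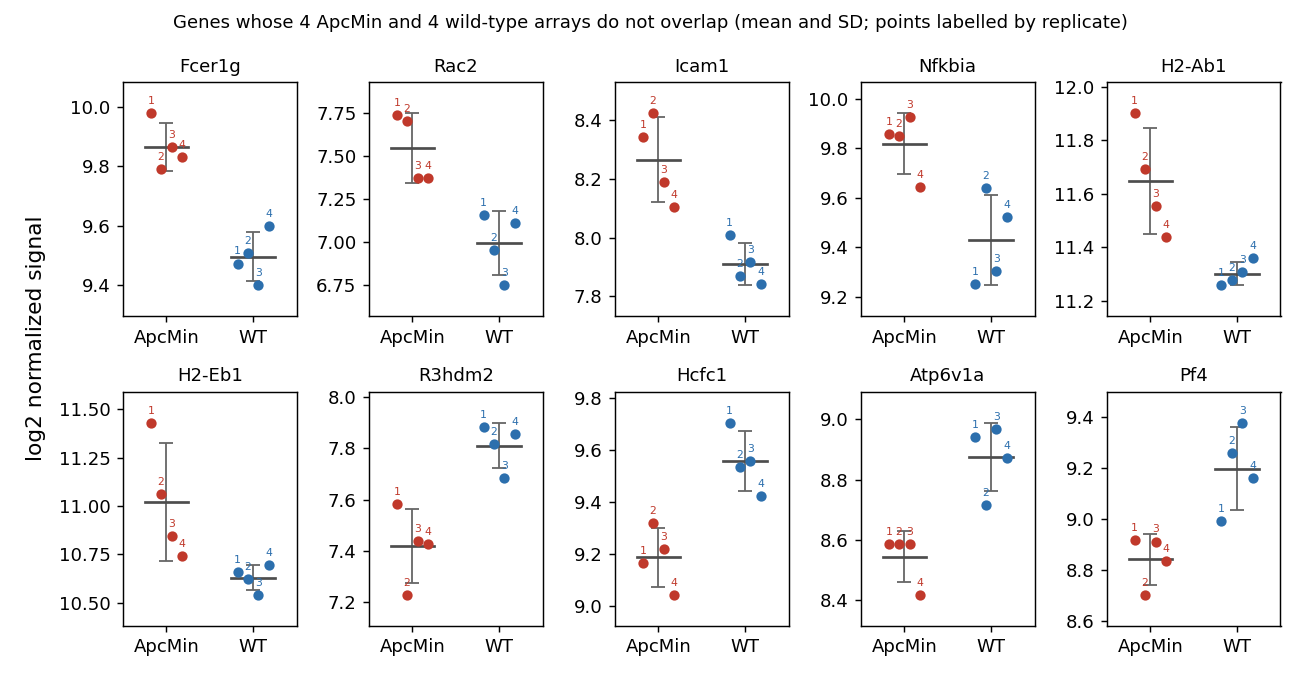
Log2 normalized signal of 10 genes whose 4 ApcMin arrays (left, red) and 4 wild-type arrays (right, blue) do not overlap, with replicate numbers beside the points and bars at the mean ± SD (n = 4). Fcer1g, Rac2, Icam1, Nfkbia, H2-Ab1 and H2-Eb1 lie higher in ApcMin and R3hdm2, Hcfc1, Atp6v1a and Pf4 lower; axes start above 0 and differ between panels.

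The 4 ApcMin vehicle arrays numbered 5 to 8, which stood outside the fit, gave a further reading of these genes. Of the 112 targets higher without overlap, 12 were also above all wild-type arrays in each of replicates 5 to 8. Of the 176 lower, 38 were also below. Both readings used the same 4 wild-type arrays. How many of all targets lay outside the wild-type range in replicates 5 to 8 was not counted. The 12 and the 38 can therefore not be called many or few. Fcer1g (9.29 to 9.82) and Rac2 (6.84 to 6.97) overlapped the wild-type range there, and Icam1 (7.95 to 8.06) did so too. R3hdm2 (8.81 to 9.22), Hcfc1 (9.80 to 10.33), Atp6v1a (9.47 to 9.61) and Mrpl20 (10.38 to 10.66) were above every wild-type array in replicates 5 to 8, opposite to replicates 1 to 4. In this second set genotype and replicate-number set cannot be told apart, since no wild-type array carries a number over 4.

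Some genes kept 1 direction on all 8 ApcMin vehicle arrays, and those named here were picked after their values were seen. Prrc2b lay at 9.50 to 9.57 in ApcMin replicates 1 to 4 and 9.45 to 9.69 in replicates 5 to 8, below 9.71 to 9.86 in wild type. Ptpdc1, a protein phosphatase, lay at 6.65 to 6.80 in replicates 1 to 4 and 6.63 to 6.80 in replicates 5 to 8, below 6.90 to 6.97 in wild type. Agrn, a basement membrane proteoglycan, read 10.28, 10.19, 10.34 and 10.54 in ApcMin replicates 1 to 4, against 10.71, 10.87, 10.56 and 10.56 in wild type. Notch3, a Notch receptor of mural cells, read 6.77, 6.66, 6.70 and 6.74 in ApcMin, against 6.98, 6.93, 6.82 and 6.96. On the higher side Stap2, an adaptor of cytokine receptor signalling, read 8.78, 8.71, 8.74 and 8.80 in ApcMin, against 8.55, 8.64, 8.62 and 8.64. All these differences were between 0.14 and 0.34 in size, and none was called.

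The pathway of the mutated gene came next. Apc itself read 6.75, 6.54, 6.76 and 6.64 in ApcMin and 6.67, 6.89, 6.67 and 6.58 in wild type, just above the brightness filter of 6.54, and the groups overlapped (difference -0.03, interval -0.22 to 0.17). A point mutation need not alter the transcript level that a probe reads, so this value checks no label. Ctnnb1, the gene of beta-catenin, read 11.05, 10.93, 11.05 and 10.88 in ApcMin and 11.20, 11.03, 11.09 and 11.27 in wild type, lower in each of the 4 numbered pairs (-0.17, interval -0.34 to 0.01). In ApcMin replicates 5 to 8 Ctnnb1 read 11.68 to 12.03, above every wild-type array, and over all 8 ApcMin arrays the difference was 0.27. Beside Axin2, which both lists hold, the other members of the destruction complex and the Tcf complex lay between -0.12 for Tcf7l2 and 0.15 for the co-repressor Tle1.

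Wnt target genes did not separate the genotypes. Axin2, a feedback inhibitor that Wnt signalling induces in most tissues, read 9.12, 9.04, 8.89 and 8.81 in ApcMin and 8.70, 8.93, 8.79 and 8.67 in wild type. Its difference of 0.19 (interval -0.02 to 0.40) was positive in 4 of 4 numbered pairs, and 1 wild-type array lay within the ApcMin range. Lgr5, the receptor that marks crypt base stem cells, read 7.09, 6.84, 6.90 and 7.05 in ApcMin and 6.77, 7.20, 7.03 and 6.94 in wild type (interval -0.25 to 0.22). Ccnd1, the gene of cyclin D1, read 10.52, 10.61, 10.46 and 10.68 in ApcMin and 10.84, 10.39, 10.56 and 10.63 in wild type (interval -0.26 to 0.19). For these 3 genes the intervals of the gene-level fit leave out differences over 0.40 in either direction. The 3 probes of Ccnd1 gave -0.01, -0.03 and -0.23, the last with an SE of 0.10, so the bound need not hold for each probe. Lgr5 was dim, and its bound is on the scale with the offset. Myc lay at 6.06 to 6.21 in ApcMin and 6.03 to 6.21 in wild type, under the brightness filter, and Notum and Nkd1, both secreted or cytoplasmic Wnt inhibitors, were also too dim to test. Of 11 tested Wnt target and stem cell genes 3 were higher and 8 lower, with a median of -0.04, and of 11 genes of the destruction complex 7 were higher, with a median of 0.02. In neither list did any member have groups that did not overlap, beside 1.24% and 1.95% of all targets, and the median of all targets was -0.01.

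**Figure D3:**
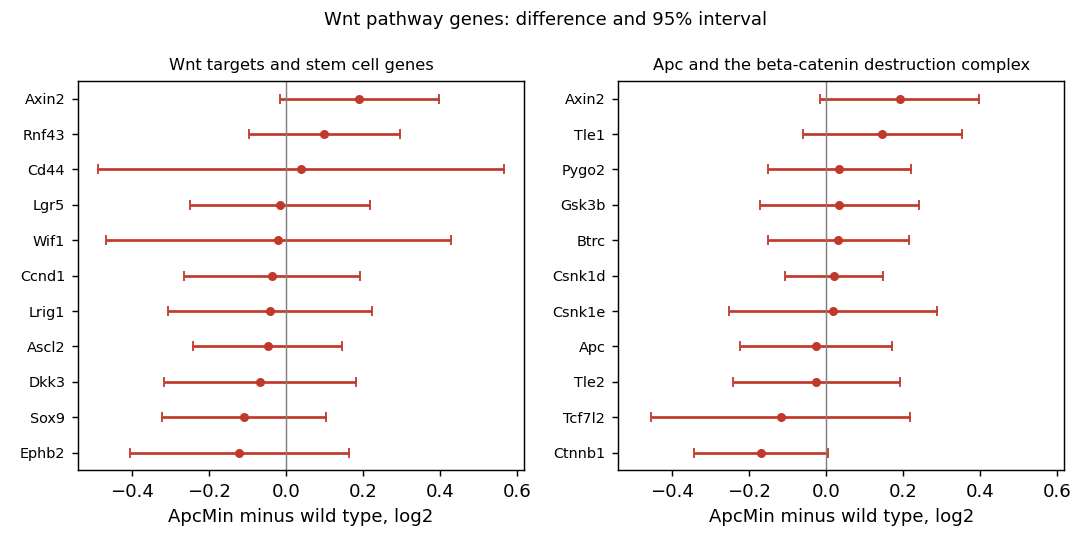
ApcMin minus wild-type difference (horizontal, log2) with its 95% interval for the tested Wnt target and stem cell genes (left panel) and the tested members of the beta-catenin destruction complex and its partners (right panel), 4 arrays per genotype. Every interval includes 0; Axin2, at 0.19, is the highest in both panels.

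Genes of cell division were lower in most members on ApcMin replicates 1 to 4. Of 21 tested S phase and mitosis genes 18 were lower and 3 higher, with a median of -0.15. Of all targets 46.0% were higher in ApcMin. Top2a, the topoisomerase of dividing cells, read 8.57, 8.32, 8.37 and 8.29 in ApcMin and 9.03, 8.69, 8.93 and 8.48 in wild type, a difference of -0.40 (interval -0.68 to -0.11). Rrm1, of ribonucleotide reductase, read 8.85, 8.67, 8.53 and 8.67 in ApcMin and 9.20, 8.88, 9.19 and 8.76 in wild type (-0.33, interval -0.60 to -0.06). Both were lower in 4 of 4 numbered pairs and both overlapped between the groups. The list's mean level was 8.31, 8.25, 8.05 and 8.13 in ApcMin and 8.46, 8.24, 8.51 and 8.08 in wild type. Wild-type replicates 1 and 3 were thus the highest and wild-type replicates 2 and 4 lay within the ApcMin range. In ApcMin replicates 5 to 8 the mean was 8.60, 8.45, 8.24 and 8.38, so the lower level did not recur there. In 0 of the 21 did the groups not overlap, beside 1.24% of all targets higher and 1.95% lower without overlap.

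Of the 12 tested MHC class II genes, 11 were higher in ApcMin, and the median difference was 0.32. Class II molecules present peptides from outside the cell to helper T cells, on B cells, dendritic cells, macrophages and, when induced, on epithelium. H2-Ab1, a chain of the I-A molecule, read 11.90, 11.69, 11.56 and 11.44 in ApcMin and 11.26, 11.28, 11.31 and 11.36 in wild type. The difference was 0.35 (interval 0.12 to 0.57), and all 4 probes of the gene gave between 0.32 and 0.38. H2-Eb1, the beta chain of I-E, read 11.43, 11.06, 10.84 and 10.74 in ApcMin and 10.66, 10.62, 10.54 and 10.69 in wild type (0.39, interval 0.08 to 0.71). H2-DMa, of the peptide exchange factor, read 9.83, 9.59, 9.52 and 9.37 in ApcMin and 9.25, 9.33, 9.01 and 9.31 in wild type (0.35, interval 0.10 to 0.61). These 3 of 12 members had no overlap, beside 1.24% of all targets, and ApcMin replicate 4 was the lowest ApcMin array in each. Cd74, the invariant chain, read 12.73, 12.59, 12.39 and 11.97 in ApcMin and 11.99, 12.09, 12.00 and 12.05 in wild type, with ApcMin replicate 4 below all wild-type arrays. Ciita, the factor that switches class II genes on, read 7.76, 7.21, 7.02 and 6.59 in ApcMin and 7.12, 6.83, 6.60 and 6.83 in wild type.

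Class II promoters share short sequence boxes, and those of H2-Eb1 and H2-DMb2 are shown because they hold both boxes searched. The Y box core GATTGG and AACNGATG, part of the X box, were looked for on both strands in RefSeq promoters of build GRCm38.p6, which run from 250 bases before to 50 after the transcription start. Their matches are in capitals, and neither box overlaps the other. H2-Eb1 is the window chr17:34305617-34305916 on the plus strand and H2-DMb2 the window chr17:34144999-34145298 on the plus strand.
H2-Eb1: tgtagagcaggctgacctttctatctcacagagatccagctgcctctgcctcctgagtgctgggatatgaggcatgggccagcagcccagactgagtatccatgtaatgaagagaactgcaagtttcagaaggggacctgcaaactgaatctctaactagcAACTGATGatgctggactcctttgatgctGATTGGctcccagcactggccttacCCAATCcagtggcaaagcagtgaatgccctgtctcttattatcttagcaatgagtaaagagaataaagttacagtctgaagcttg
H2-DMb2: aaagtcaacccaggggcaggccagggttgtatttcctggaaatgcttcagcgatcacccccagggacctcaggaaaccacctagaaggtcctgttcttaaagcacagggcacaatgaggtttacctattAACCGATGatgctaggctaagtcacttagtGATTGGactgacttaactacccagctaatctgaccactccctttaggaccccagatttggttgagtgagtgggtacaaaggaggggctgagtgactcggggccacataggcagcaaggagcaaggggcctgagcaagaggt
GATTGG was found in 7 of the 9 tested class II members that had an entry, and in 16.1% of all 32851 promoters. AACNGATG was found in 4 of the 9 and in 2.32% of all promoters. Both were present in 3 of the 9 and in 0.335% of all. Members were counted per gene, with a match in any of its windows, and all promoters per window. The shares are therefore not like for like. H2-DMb2 itself read 8.10, 7.65, 6.98 and 6.83 in ApcMin and 7.24, 7.20, 6.89 and 6.66 in wild type, higher in 4 of 4 numbered pairs but overlapping between the groups.

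B cell genes moved with class II across the arrays. In a bulk sample fewer cells of a type and less RNA per cell cannot be told apart. Cd79b, a chain of the B cell receptor, read 9.02, 8.79, 7.93 and 6.69 in ApcMin and 7.98, 7.47, 7.32 and 6.85 in wild type. Fcmr, the IgM receptor, read 9.93, 9.30, 7.82 and 6.34 in ApcMin and 8.77, 8.28, 7.49 and 6.56 in wild type. In both genes ApcMin replicates 1 and 2 were the highest arrays and the replicates 4 of both genotypes the lowest. The mean of the 6 tested B cell genes was 8.64, 8.39, 7.49 and 6.78 in ApcMin and 7.79, 7.55, 7.18 and 6.87 in wild type, and the mean of the 12 class II genes 9.51, 9.33, 9.03 and 8.83 in ApcMin and 8.99, 8.93, 8.82 and 8.90 in wild type. All 6 B cell genes were higher, by a median of 0.49, with 0 of 6 free of overlap beside 1.24% of all targets, and defining genes such as Ms4a1 and Pax5 were too dim to test. In ApcMin replicates 5 to 8 the B cell mean was 6.64 to 7.49. Without ApcMin replicates 1 and 2 the median of the class II list was -0.02 and that of the B cell list -0.10. The part of B cells in the class II values was not tested.

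Of 16 tested macrophage genes 13 were higher, and the median difference was 0.15. The chains of complement C1q, which tissue macrophages make, were close to each other in size of difference, with 0.21 for C1qa, 0.27 for C1qb and 0.24 for C1qc. C1qb read 10.35, 10.38, 10.23 and 10.14 in ApcMin and 9.76, 10.11, 10.14 and 10.03 in wild type, without overlap. Fcer1g and C1qb were the 2 of 16 members without overlap, beside 1.24% of all targets. Csf1r, Adgre1 and Cx3cr1, which define resident macrophages, differed by 0.03, 0.04 and -0.15. The median of the list was 0.01 without ApcMin replicates 1 and 2.

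Among cytokine signalling genes 3 of 16 were higher without overlap, beside 1.24% of all targets, 5 of 16 were higher in all, and the median was -0.03. Icam1, the adhesion molecule that binds leukocytes, read 8.34, 8.42, 8.19 and 8.10 in ApcMin and 8.01, 7.87, 7.92 and 7.84 in wild type (0.36, interval 0.16 to 0.55). Nfkbia, the inhibitor of NF-kappaB that NF-kappaB induces, read 9.86, 9.85, 9.92 and 9.64 in ApcMin and 9.25, 9.64, 9.31 and 9.52 in wild type (0.39, interval 0.15 to 0.63). The lowest ApcMin and the highest wild-type array of Nfkbia were less than 0.01 apart. Jak2, a cytokine receptor kinase, read 8.45, 8.47, 8.43 and 8.56 in ApcMin and 8.22, 8.28, 8.26 and 8.37 in wild type (0.20, interval 0.05 to 0.34). Of 2 further NF-kappaB targets, Nfkb2 differed by -0.03 (interval -0.22 to 0.16) and Tnfaip3 by -0.03 (interval -0.77 to 0.72). Stat3 was lower in 4 of 4 numbered pairs (-0.17, interval -0.39 to 0.05), though its 3 probes disagreed in sign.

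The largest differences of the comparison belonged to digestive enzymes of the exocrine pancreas. Of 26 tested acinar genes 24 were higher, by a median of 2.25, but 0 of 26 had groups without overlap, beside 1.24% of all targets. The brightness filter used the mean over all 24 arrays, so genes dim in wild type could be tested through bright ApcMin arrays alone. The count of 24 and the median of 2.25 therefore depend in part on that filter. Pnlip, pancreatic lipase, read 5.82, 13.21, 11.82 and 8.83 in ApcMin and 6.46, 6.65, 6.25 and 5.87 in wild type. Cela2a, an elastase, read 6.07, 14.34, 12.83 and 9.61 in ApcMin and 6.92, 7.38, 6.56 and 6.01 in wild type, and its difference of 3.99 carried an interval of 0.49 to 7.50. In both genes ApcMin replicates 2, 3 and 4 stood above all wild-type arrays in that order, and ApcMin replicate 1 lay near the lowest wild-type array. Reg1, a lectin-like protein of the pancreas, read 6.11, 12.26, 10.42 and 8.03 in ApcMin and 6.11, 6.26, 6.33 and 7.07 in wild type. The mean of the 26 genes was 7.88, 12.12, 10.97 and 8.55 in ApcMin and 8.04, 8.10, 7.89 and 7.63 in wild type.

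The acinar genes did not all follow this order. Clps, colipase, read 9.31, 13.68, 13.04 and 10.92 in ApcMin and 10.65, 9.96, 10.06 and 10.76 in wild type. Sycn, Cela1, Zg16, Klk1 and Spink1 were bright on all wild-type arrays, at 10.79 or more, and lay between -0.07 and 0.27. The colon thus expressed 5 list members at high signal in both genotypes. Trypsin and amylase genes have near-identical copies that may share probe signal. Of the pancreatic islet genes, Ins1, Ins2 and Iapp read at most 6.19 on all 8 arrays. Ppy, pancreatic polypeptide, was the 1 islet gene bright enough to test, and read 8.03, 7.73, 7.94 and 6.75 in ApcMin and 7.96, 7.95, 7.87 and 7.05 in wild type. Ptf1a, the acinar transcription factor, read 5.92 to 6.06 in ApcMin and 5.83 to 5.88 in wild type, under the brightness filter. Without ApcMin replicates 2 and 3 the median of the list was 0.41. The part of pancreatic tissue in the samples was not tested.

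Acinar enzyme promoters carry the paired boxes of the factor Ptf1. Those of Cela2a and Cel, the bile salt-stimulated lipase, are shown because each box has a match somewhere in their windows. The search set no spacing between the boxes, so a window with both need not hold a paired site. The E box CACCTG and the box TTTCCC were looked for on both strands in the same RefSeq windows, and their matches, which do not overlap each other, are in capitals. Cela2a is the window chr4:141825956-141826255 and Cel the window chr2:28563354-28563653, both on the minus strand and written 5′ to 3′ of the gene.
Cela2a: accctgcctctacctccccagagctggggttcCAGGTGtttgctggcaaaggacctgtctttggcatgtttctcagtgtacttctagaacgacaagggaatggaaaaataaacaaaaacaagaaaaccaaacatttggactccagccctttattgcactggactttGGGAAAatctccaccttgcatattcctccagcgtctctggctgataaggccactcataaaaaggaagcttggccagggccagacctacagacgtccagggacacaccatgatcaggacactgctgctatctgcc
Cel: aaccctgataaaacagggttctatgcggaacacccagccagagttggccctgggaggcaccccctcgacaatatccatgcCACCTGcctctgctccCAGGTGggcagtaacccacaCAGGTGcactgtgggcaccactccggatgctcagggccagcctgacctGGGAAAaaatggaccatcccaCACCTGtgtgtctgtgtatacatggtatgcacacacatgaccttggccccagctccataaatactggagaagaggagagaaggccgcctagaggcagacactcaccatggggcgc
CACCTG was found in 12 of the 20 tested acinar members with an entry and in 20.2% of all promoters. TTTCCC was found in 7 of the 20 and in 25.2%, and both in 5 of the 20 and in 4.86%. Here too members were counted per gene and all promoters per window. Cel read 5.99, 11.15, 9.64 and 6.81 in ApcMin and 6.08, 6.20, 6.03 and 5.98 in wild type.

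Secreted epithelial proteins were high on some of the same arrays. Retnlb, a bactericidal resistin-like protein of goblet cells, read 9.85, 14.51, 14.79 and 11.69 in ApcMin and 12.07, 9.51, 8.92 and 8.26 in wild type (3.02, interval 0.30 to 5.75). Ang4, an antimicrobial ribonuclease, read 12.20, 14.63, 14.57 and 12.34 in ApcMin and 13.45, 10.51, 11.96 and 9.61 in wild type. Itln1, intelectin of goblet cells, read 6.81, 10.27, 10.51 and 7.22 in ApcMin and 7.94, 6.60, 6.61 and 6.48 in wild type, though its near-identical copies may share the probe. In all 3 genes ApcMin replicates 2 and 3 were the highest arrays and wild-type replicate 1 exceeded ApcMin replicate 1. Muc13, a transmembrane mucin, was the 1 goblet gene of 12 without overlap, beside 1.24% of all targets. It read 13.59, 13.51, 13.64 and 13.53 in ApcMin and 13.45, 13.38, 13.49 and 13.34 in wild type (0.16, interval 0.01 to 0.30). Its 2 probes gave 0.30 and 0.08, and the groups overlapped in the second. Clca1, Zg16 and Tff3, abundant goblet products, differed by 0.14, -0.07 and 0.03, and the list's median was 0.14.

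Antibody-secreting cell genes were highest in the same pair of ApcMin arrays. Mzb1, a chaperone of antibody assembly, read 9.56, 10.27, 11.02 and 8.85 in ApcMin and 9.01, 8.37, 8.78 and 8.84 in wild type (1.18, interval 0.26 to 2.10), higher in 4 of 4 numbered pairs. Pou2af1, a B lineage co-activator, read 8.42, 8.97, 8.85 and 7.52 in ApcMin and 8.08, 7.29, 7.63 and 7.46 in wild type (0.83, interval 0.12 to 1.54). Tnfrsf17, a survival receptor of plasma cells, read 7.10, 7.81, 8.16 and 6.85 in ApcMin and 7.00, 6.52, 6.89 and 7.04 in wild type. In each gene ApcMin replicate 4 lay within the wild-type range. Of 8 plasma cell genes 7 were higher (median difference 0.32), with 0 of 8 free of overlap, beside 1.24% of all targets. Genes of the unfolded protein response, which serves secretory cells, were higher for 15 of 17 (median difference 0.14), and their mean was highest in ApcMin replicates 2 and 3, at 10.43 and 10.36, against 9.93 to 10.24 in wild type. Pdia4, a disulfide isomerase, differed by 0.34 (interval 0.05 to 0.62) and Ddit3, a stress-induced transcription factor, by 0.24 (interval 0.04 to 0.44).

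**Figure D4:**
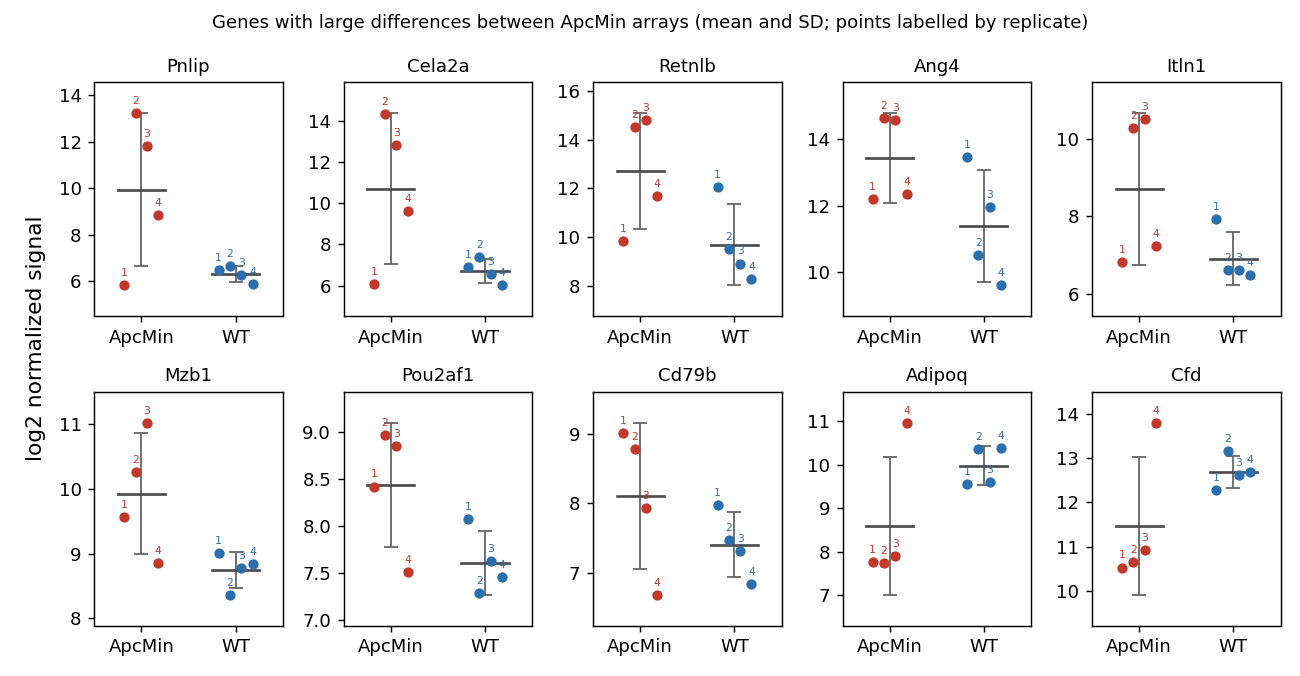
Log2 normalized signal of 10 genes that varied widely between ApcMin arrays (left, red) or set apart some of them, with wild-type arrays on the right (blue), replicate numbers beside the points and bars at the mean ± SD (n = 4). ApcMin replicates 2 and 3 are highest for Pnlip, Cela2a, Retnlb, Ang4, Itln1, Mzb1 and Pou2af1, and ApcMin replicates 1 to 3 are lowest for Adipoq and Cfd; axes differ between panels.

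Adipocyte genes were lower on 3 of the 4 ApcMin arrays. Adipoq, the hormone adiponectin, read 7.76, 7.75, 7.90 and 10.97 in ApcMin and 9.56, 10.35, 9.61 and 10.38 in wild type. Cfd, the protease adipsin, read 10.53, 10.65, 10.92 and 13.80 in ApcMin and 12.28, 13.15, 12.62 and 12.69 in wild type. In both genes ApcMin replicates 1 to 3 lay below every wild-type array and ApcMin replicate 4 lay above the highest. With all 8 arrays the differences were -1.38 (interval -2.94 to 0.17) and -1.21 (interval -2.71 to 0.30). Without ApcMin replicate 4 limma called these 2 genes alone of 9048, Cfd at -1.98 and Adipoq at -2.17 (adjusted p = 0.0334 for both). With both replicates 4 left out, a setting chosen after the data were seen, 5 genes were called. They were Adipoq (-2.04, adjusted p = 0.0257), Cfd (-1.98, 0.0257), the lipid droplet gene Cidec (-1.34, 0.0487), the cytochrome P450 gene Cyp2e1 (adjusted p = 0.0454) and Ly6d (0.88, 0.0342), a surface protein of lymphoid and epithelial cells. Cyp2e1 read 7.44, 7.54, 7.60 and 10.19 in ApcMin and 8.93, 10.08, 9.58 and 9.20 in wild type. Ly6d read 7.79, 7.92, 7.76 and 6.52 in ApcMin and 7.10, 6.93, 6.81 and 6.61 in wild type. Of 10 tested adipocyte genes 8 were lower and 2 higher, by a median of -0.74, with 0 of 10 free of overlap, beside 1.95% of all targets. The list's mean was 8.23, 8.29, 8.32 and 10.40 in ApcMin and 9.21, 9.79, 9.23 and 9.96 in wild type. In ApcMin replicates 5 to 8 it was 9.22 to 9.67, within the wild-type range. The amount of mesenteric fat left on each sample is not given in the labels, and its part was not tested.

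Absorptive and transport genes showed 1 separated member. Cdh17, an adhesion protein of intestinal epithelium, read 7.49, 7.09, 7.25 and 7.36 in ApcMin and 7.60, 7.50, 7.62 and 7.58 in wild type (-0.28, interval -0.48 to -0.07). It was the 1 of 17 tested colonocyte genes without overlap, beside 1.95% of all targets lower without overlap, and the list's median was -0.04. In ApcMin replicates 5 to 8 Cdh17 read 8.77 to 9.48, above every wild-type array, so that the difference over all 8 ApcMin arrays was 0.64. Ceacam1, an epithelial adhesion molecule, was higher in 4 of 4 numbered pairs (0.55, interval -0.04 to 1.14). Among ion and water transport genes 15 of 17 were lower, by a median of -0.15, with 0 of 17 free of overlap. The calcium-activated potassium channel Kcnn4 read 8.52, 8.27, 8.22 and 8.15 in ApcMin and 8.45, 8.58, 8.41 and 8.46 in wild type (-0.19, interval -0.39 to 0.02). Fxyd4, a sodium pump regulator of the distal colon and kidney that was picked after its values were seen, had the largest difference on the lower side, -2.01 (interval -3.74 to -0.29). It read 8.60, 6.85, 7.40 and 6.05 in ApcMin and 8.88, 10.89, 9.78 and 7.38 in wild type, lower in 4 of 4 numbered pairs.

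Iron, junction, stromal and tuft cell genes gave small differences among their leading members. Heph, the ferroxidase that helps export iron, read 9.08, 9.27, 8.94 and 9.14 in ApcMin and 8.98, 8.66, 8.94 and 8.58 in wild type (0.31, interval 0.06 to 0.57), and its plasma relative Cp differed by 0.26. The iron exporter Slc40a1 differed by -0.30 (interval -0.68 to 0.08), and the median of 13 iron genes was -0.06. Tjp3, a tight junction scaffold, read 9.83, 9.63, 9.71 and 9.69 in ApcMin and 9.28, 9.26, 9.70 and 9.42 in wild type (0.30, interval 0.06 to 0.54). Wild-type replicates 1 and 3 overlapped the ApcMin range in Heph, and wild-type replicate 3 did so in Tjp3. Pdgfrb, the growth factor receptor of pericytes and fibroblasts, read 6.91, 6.75, 6.74 and 6.82 in ApcMin and 7.15, 7.03, 6.92 and 7.12 in wild type, the 1 stromal gene of 18 without overlap (-0.25, interval -0.42 to -0.08), beside 1.95% of all targets. Crispld2, a secreted matrix protein, differed by -0.28 (interval -0.54 to -0.02). The 6 tested tuft cell genes were all higher, by a median of 0.17, with Dclk1, a kinase that marks these cells, at 0.34 (interval 0.06 to 0.61). In 0 of the 6 did the groups not overlap, beside 1.24% of all targets. The tuft cell mean was 7.39 to 7.66 in ApcMin replicates 1 to 4 and 7.18 to 7.43 in wild type. In ApcMin replicates 5 to 8 it was 7.12 to 7.31, so the higher level did not recur there. Prostanoid genes, the pathway of cyclooxygenase, had 1 of 12 members higher (median difference -0.05), and Ptgs1 read 7.07 to 7.25 in ApcMin and 6.98 to 7.39 in wild type.

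Further lists held few separated members, to be read beside the 1.24% of all targets higher and 1.95% lower without overlap. T and NK cell genes were higher for 8 of 9 (median difference 0.21, 0 of 9 free of overlap), with Cd3g, a chain of the T cell receptor complex, at 0.41 and Ccl5, a chemokine of cytotoxic cells, at 0.32. Interferon-stimulated genes were higher for 15 of 21 (median 0.03) and p53 target and apoptosis genes for 15 of 20 (median 0.07), in both with 0 members free of overlap. Circadian clock genes were lower for 13 of 14 (median -0.07), and Bhlhe40, a clock repressor, was the 1 member without overlap (-0.25), though it read 11.04 to 11.51 in ApcMin replicates 5 to 8, above every wild-type array. Of 26 oxidative phosphorylation genes (median -0.03), 1 was higher and 1 lower without overlap. The lower was Sdhd of complex II (-0.23), which read 10.41 to 10.95 in ApcMin replicates 5 to 8, above every wild-type array. Suox, the sulfite oxidase, was the 1 of 9 hydrogen sulfide metabolism genes without overlap (0.19), and Acadl, a fatty acid oxidation enzyme, the 1 of 13 PPAR targets (0.17), though its 2 probes disagreed. Smooth muscle genes (median -0.04 over 15) and endothelial genes (median -0.09 over 9) had 0 members without overlap, and no neutrophil or mast cell gene was bright enough to test.

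**Figure D5:**
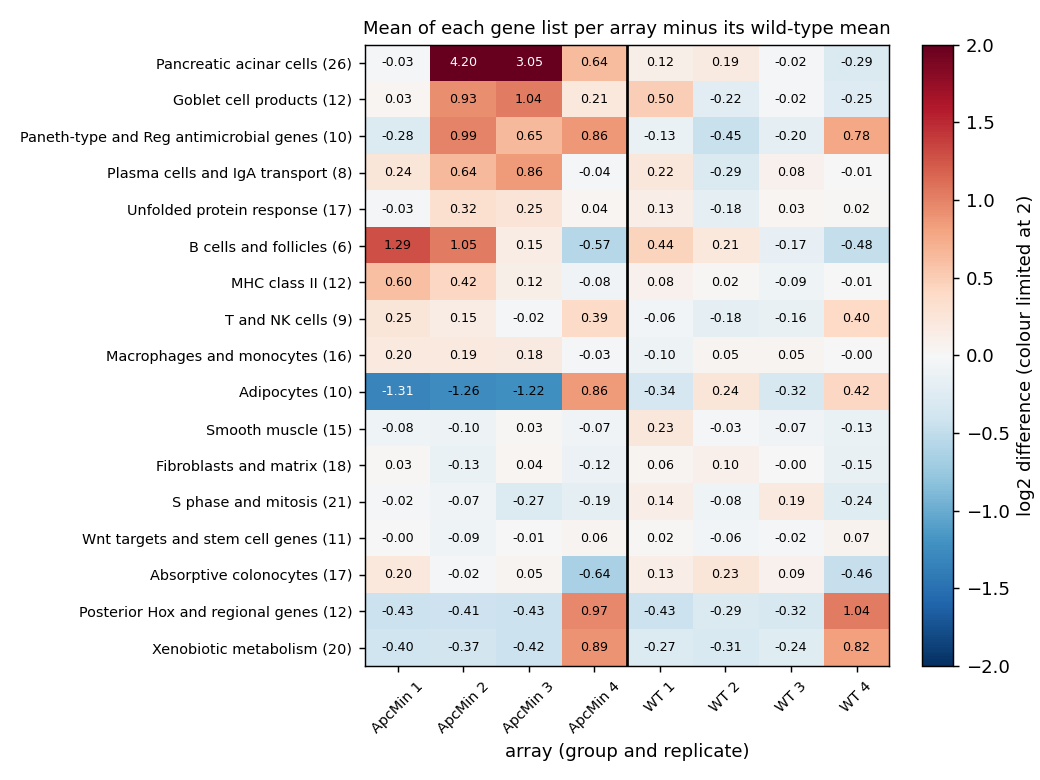
Mean of the tested members of 17 gene lists (rows, number of members in brackets) on each array (columns, ApcMin left and wild type right), as the log2 difference from the mean of the 4 wild-type arrays, with colour limited at 2. Acinar genes stand out in ApcMin replicates 2 and 3, adipocyte genes are low in ApcMin replicates 1 to 3, and Hox and xenobiotic genes are high in replicates 4 of both genotypes.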

How the data were processed

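Total RNA of mouse colon was hybridised to Illumina MouseRef-8 v2.0 arrays. Per the file headers, the authors exported the probe intensities from GenomeStudio 1.7.0 with normalization set to none. Background subtraction by the authors is not stated there. All 24 arrays were background corrected (normexp, offset 50), quantile normalized and put on the log2 scale. Targets with a mean over the 24 arrays above the median target (log2 6.54) were tested, 9048 of 18097. Gene symbols came from the array's annotation, updated through RefSeq (14096 current, 3024 through a synonym, 977 as filed).

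The 8 arrays were fitted with limma 3.58.1 in R 4.3.3 (lmFit, eBayes) with genotype alone, and p-values were adjusted by Benjamini-Hochberg. On simulated data of the same size for this comparison, 50.9% of genes changed by 0.5 log2, 88.2% by 1 and 97.3% by 2 were recovered. The mean number of false calls was 5.4. Many genes were changed at once, and the deviations of the 8 arrays were dealt at random across the genotypes. The placing of 1 replicate 4 in each genotype was thus not kept, and these rates need not hold for the real comparison. The members and gene lists were chosen with earlier results of these data known. Named genes were up to 10 in each direction with the smallest p (none was called), the 5 largest differences in each direction among genes whose groups do not overlap, up to 4 members of each described list with the smallest p, members differing by over 1 log2 unit, and a fixed set (Apc, Ctnnb1, Axin2, Lgr5, Myc, Ccnd1, Heph, Jak2, Tjp3, Kcnn4, Crispld2, Retnlb, Mzb1 and Pnlip). Predicted genes were excluded. Any other gene in the text was chosen after its values were seen. Replicate numbers come from the labels, which do not say what they mark; every same-number correlation of deviations was over 0.1, the criterion for giving the block, though only number 4 was its own best match. Since separate animals are not stated, the p-values reflect array-to-array spread only, which may be technical. Alternatives covered background, scaling, filter, replicate block, array weights, probe-level intensities and left-out arrays. For genes with 1 probe, 99% of the probe-level values matched the gene-level ones within 0.05 intensity units. They were given the same processing and are no independent normalization.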

Additional observations from a re-analysis of the deposited data

Results flagged for a closer look

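Of 184 groups of 4 arrays looked at, 13 had 1 array far from the other 3 by Dixon's 95% criterion, which chance flags in about 5% of groups. In ApcMin replicate 4 the list means that stood apart were those of macrophages (8.74, others 8.96 to 8.97), adipocytes (10.40, others 8.23 to 8.32), cytokine signalling (7.82, others 8.11 to 8.17), posterior Hox and regional genes (9.12, others 7.72 to 7.74), xenobiotic metabolism (10.40, others 9.09 to 9.14) and hydrogen sulfide metabolism (9.32, others 9.01 to 9.06). Atp6v1a read 8.42 there, with the others at 8.59. In wild-type replicate 4 they were posterior Hox and regional genes (9.19, others 7.72 to 7.86), xenobiotic metabolism (10.33, others 9.20 to 9.27), PPAR targets (9.95, others 9.47 to 9.49) and oxidative phosphorylation (11.88, others 11.81 to 11.82). Mesothelium genes averaged 8.56 in wild-type replicate 1 (others 9.28 to 9.37) and tight junction genes 9.78 in wild-type replicate 2 (others 9.84 to 9.85).

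Outside the comparison, the mean of the 26 pancreatic acinar genes was 8.28 in ApcMin replicate 5, 13.66 in replicate 7 and 10.80 in replicate 8, above the wild-type range of 7.63 to 8.10. It was 7.70 in replicate 6, within that range.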

How the results depend on the processing

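The number of genes called by limma was 0 in every setting run, except that it was 2 without ApcMin replicate 4 (range 0 to 2 with 1 array left out) and 5 with both replicates 4 left out. Genes at an unadjusted p under 0.05, 424 as reported, numbered 872 with no filter and 182 with a filter at the 75th percentile, where more or fewer targets were tested. They numbered 720 with the replicate block, 709 with array weights and 232 to 590 with 1 array left out. On the probe-level intensities, processed in the same way, they numbered 637 of 12848 tested probes. Omitting a pair gave 249 without ApcMin replicates 1 and 2, 706 without both replicates 4 and 166 without ApcMin replicates 2 and 3. Targets higher without overlap, 112 as reported, numbered 218, 50, 12, 166 to 291, 410, 486 and 352 with no filter, the 75th percentile filter, all 8 ApcMin arrays, 1 array left out, and the same 3 omissions of a pair. Targets lower without overlap, 176 as reported, numbered 303, 79, 38, 237 to 442, 606, 684 and 433 in the same order, and 95 with median scaling, which gave 80 higher. Fewer arrays make overlap less likely by construction; the cause of the other shifts was not tested.

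With all ApcMin vehicle arrays in 1 group, the sign turned for R3hdm2 (0.38), Hcfc1 (0.10), Atp6v1a (0.17), Mrpl20 (0.37), Zfp322a (0.13), Pf4 (0.19), Ctnnb1 (0.27), Cdh17 (0.64), Bhlhe40 (0.0884) and Sdhd (0.72). With 1 array left out, Apc ranged from -0.0659 to 0.0383, Lgr5 from -0.0868 to 0.0565 and Ccnd1 from -0.106 to 0.0430. Apc turned to 0.0383 without wild-type replicate 2, 0.02 without ApcMin replicate 2 and 0.0017 without ApcMin replicates 1 and 2. Lgr5 turned to 0.0015 with median scaling, 0.0565 and 0.000186 without wild-type replicates 2 and 3, 0.03 and 0.0074 without ApcMin replicates 2 and 3 singly. Lgr5 was 0.0850 with ApcMin replicates 2 and 3 both left out. Ccnd1 turned to 0.0430 without wild-type replicate 1 and 0.0004 without ApcMin replicate 3, and Clps to -0.24 without ApcMin replicates 2 and 3. The cause was not tested. For the 75 genes followed through the 22 settings, 22 values turned in sign, 5 crossed the adjusted p threshold (Adipoq and Cfd without ApcMin replicate 4 and without both replicates 4, Cyp2e1 without both) and 1573 did neither. The other named list members were not followed. Omitting ApcMin replicates 2 and 3 or both replicates 4 was chosen after seeing the data.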
